A study of Mus musculus with 10 samples.

Results

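Regulatory T (Treg) cells taken from E.G7 tumours were compared with Treg cells taken from lymph nodes (LN) of mice without a tumour, across every gene with enough reads. These were 6 of the 10 libraries of the series, 2 from E.G7 and 4 from LN, chosen by their sample titles. E.G7 is a mouse T lymphoma line, an ovalbumin-expressing derivative of EL4, so the tumour cells are themselves of the T lineage. The E.G7 cells were injected under the skin of Foxp3YFP-cre mice, tumours were taken on day 21, infiltrating lymphocytes were isolated, and Treg cells were sorted from CD4+ T cells. The LN controls were Foxp3YFP-cre mice as well, had no treatment, and so carried the same reporter allele and Cre. The remaining 4 libraries are Treg cells of Hepa1-6 hepatoma grown in the same strain and taken on day 23. Their levels are given below only to show where E.G7 differed from another tumour. They also entered the gene filter, the scaling and the shared estimate of spread behind the comparison of E.G7 with LN. With only the 6 libraries, 18150 genes were tested, 6327 higher and 5519 lower in E.G7. The submitters chose LN as a control mainly of thymus-derived Treg cells against tumours holding many peripherally derived ones, and asked whether tumour Treg cells resemble T helper subsets. Tissue, tumour and day cannot be told apart in this design, and the labels do not say whether the libraries came from separate mice, so p-values cover only the variation among the libraries at hand, part or all of which could be technical.

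As background, Treg cells are CD4+ T cells that restrain other immune cells. The transcription factor Foxp3 sets their program, they bind interleukin-2 through the receptor chain Il2ra, and they carry the inhibitory receptor Ctla4. Resting Treg cells recirculate through lymph nodes with homing receptors such as Ccr7. In inflamed tissue and tumours effector Treg cells take over, which carry receptors for tissue chemokines, release interleukin-10 and granzymes, and divide more. Dividing and activated T cells also draw on glycolysis, oxidative phosphorylation, amino acid uptake and new ribosomes.

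Total counts were 22665563 to 24472849 in the LN libraries and 26585350 and 26663336 in the E.G7 libraries, and mitochondrial transcripts took 1.90% of counts in LN and 1.83% in E.G7 (means, n = 4 and n = 2). The first principal component over these 6 libraries held 82.8% of the variance and set all LN libraries apart from both E.G7 libraries. Levels are given as CPM, a gene's share of its library's counts on a fixed common total, scaled between libraries by TMM. Of the genes that define the sort, Foxp3 lay at 113, 108, 119.5 and 94.1 CPM in the LN libraries and 47.1 and 53.3 CPM in the E.G7 libraries (log2 fold change -1.11, SE 0.12, adjusted p = 1.25e-06), and Il2ra at 563, 575, 626 and 575 CPM in the LN libraries and 287 and 281 CPM in the E.G7 libraries (log2 fold change -1.04, SE 0.061, adjusted p = 6.26e-10). Both were lower in every E.G7 library, although the groups' label is the same. Exons of Foxp3 overlap those of other genes, and whether the counting used strand is not known here. The same limit holds for 61 of the 199 genes named by rule, with Gpr15, Il12rb2 and Tpi1 below among them. Ctla4 lay at 425, 409, 409.9 and 397 CPM in the LN libraries and 1229 and 1294 CPM in the E.G7 libraries (log2 fold change 1.62, SE 0.046, adjusted p = 1.31e-13). Cd4 was at 747, 780.2, 717 and 795 CPM in the LN libraries and 685 and 636 CPM in the E.G7 libraries (log2 fold change -0.2, SE 0.058, adjusted p = 0.00701), a difference that lost its call without E.G7 library 2 (log2 fold change -0.14, adjusted p = 0.117) and changed sign when libraries were scaled to pan T cell genes. Cd3e fell from 580 to 386 CPM (log2 fold change -0.59, edgeR adjusted p = 3.3e-06). Ptprc fell from 2846 to 1750 CPM (log2 fold change -0.7, edgeR adjusted p = 2.13e-08). Of 13 tested pan T cell genes 8 were lower and 1 higher, against 37.6% and 34.9% of genes of at least 10 CPM in LN. In bulk RNA, fewer cells of a type and less RNA per cell cannot be told apart.

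Markers of other cells moved with the tumour as well, so they are given before the results they touch. The 14 macrophage markers were all higher in E.G7 and summed to 50.1 to 68.4 CPM in LN, 953 and 995 CPM in E.G7 and 5704 to 6149 CPM in Hepa1-6. The 11 markers of dendritic cells and MHC class II, all higher too, summed to 162 to 183 CPM in LN, 1769.6 and 1826 CPM in E.G7 and 9592 to 9978 CPM in Hepa1-6. Of 10 markers of CD8 T and NK cells 8 were higher, with sums of 29.8 to 34.4 CPM in LN, 145 and 146 CPM in E.G7 and 516 to 556 CPM in Hepa1-6. The 9 stromal markers tested were all higher and summed to 3.88 to 5.82 CPM in LN, 118 and 133 CPM in E.G7 and 1042 to 1132 CPM in Hepa1-6. For neutrophils 5 of 7 markers were higher, and for mast cells and basophils 6 of 8. Over all genes 32.7% were higher, but these counts are a description: 9 of the 14 macrophage, 3 of the 11 dendritic, 7 of the 10 CD8 and NK, 7 of the 9 stromal, 6 of the 7 neutrophil and 5 of the 8 mast cell markers were under 1 CPM in LN and passed the filter on low counts mostly through tumour libraries. B cell markers split into 6 higher and 3 lower of 10, but 6 of the 10 were under 1 CPM in LN, and of the other 4 1 was higher and 3 lower. Their sum fell from between 850.5 and 962 CPM in LN to 638 and 646 CPM in E.G7, nearly all of it Ighm. Of the 12 genes listed for the immature T lineage, the recombinase genes Rag1 and Rag2 had no count in LN or E.G7, 6 of the 9 tested were higher and 3 lower, and the sums were 334 to 385 CPM in LN, 395 and 405 CPM in E.G7 and 379 to 418 CPM in Hepa1-6. Of the 6 tested from 1 CPM in LN, 3 were higher and 3 lower. Dntt, the terminal transferase of immature lymphocytes, belongs to that list and lay at 2.33, 2.2, 2.81 and 1.86 CPM in the LN libraries and 49.8 and 43.4 CPM in the E.G7 libraries. Trap1a, named for a tumour rejection antigen and another member of it, is described with the genes under 1 CPM. The part of other cells' RNA, and of RNA from the E.G7 line itself, in the differences below was not tested.

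Sex-linked transcripts differed between the groups. Xist, the RNA that silences 1 X chromosome in female cells, lay at 168, 150.3, 163 and 150.1 CPM in the LN libraries and 8.29 and 7.03 CPM in the E.G7 libraries (log2 fold change -4.37, SE 0.11, adjusted p = 4.75e-14), and at 214 CPM on average in Hepa1-6. The groups did not overlap, and the reads of Xist share exons with its antisense partner Tsix. The Y-linked gene Ddx3y was present everywhere, at 78.8, 86.5, 79.9 and 73.8 CPM in the LN libraries and 123 and 109.7 CPM in the E.G7 libraries (log2 fold change 0.55), as was Eif2s3y, at 46.3, 48.9, 53.5 and 48.7 CPM in the LN libraries and 79.3 and 76.9 CPM in the E.G7 libraries (log2 fold change 0.66). All 4 LN libraries thus held Xist and Y-linked RNA together. The sexes of the mice are not given in the labels, and sex and tumour cannot be told apart for Xist.

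Of 20068 genes tested, 6554 (32.7%) were higher and 5459 (27.2%) lower in E.G7 (edgeR quasi-likelihood test, Benjamini-Hochberg adjusted p under 0.05, no minimum fold). In 6439 of the higher genes (32.1% of those tested) and 5370 of the lower (26.8%), both E.G7 libraries lay outside the range of the LN libraries. The change looked different by the level in LN. Among the 8766 genes of at least 10 CPM in LN, called well expressed here, 3057 (34.9%) rose and 3299 (37.6%) fell, with 786 (8.97%) and 1015 (11.6%) passing 2-fold. Most of these shifts were small: the middle 90% of log2 fold changes ran from -1.45 to 1.31, and the median was 0.66 among the risers and -0.7 among the fallers. Only 2 of the risers (0.0228% of well expressed genes) passed 16-fold, and both are named in the next paragraph. Between 1 and 10 CPM, 1359 (26.7%) of 5098 genes rose and 1679 (32.9%) fell. Under 1 CPM more genes were called higher than lower: 2138 (34.5%) of 6204 genes rose and 481 (7.75%) fell. Of the risers 1093 (17.6% of these genes) passed 16-fold. A gene that low in LN reached the test mostly through its tumour libraries, so its rise is partly fixed by the filter. Some, such as Krt14 with 0 counts in LN and E.G7, entered through Hepa1-6 and could not be called. A fall from under 1 CPM also has little room to be seen, with a median SE of 0.662 against 0.1 from 10 CPM. These counts and their balance are therefore a description. The whole group of genes under 1 CPM took 0.292% of counts in LN and 1.12% in E.G7 (SD 0.0152 and 0.0187). Genes of at least 10 CPM took 97.7% and 95.6%. The split of calls depends on the scale: scaling to pan T cell genes moved the median of all genes up by 0.36 on the log2 scale and gave 8922 higher and 3326 lower genes, or 72.8% of calls higher against 54.6%, while upper-quartile scaling moved it by -0.12. The count of fallers under 1 CPM was 232 without E.G7 library 1 and 193 without E.G7 library 2.

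**Figure D1:**
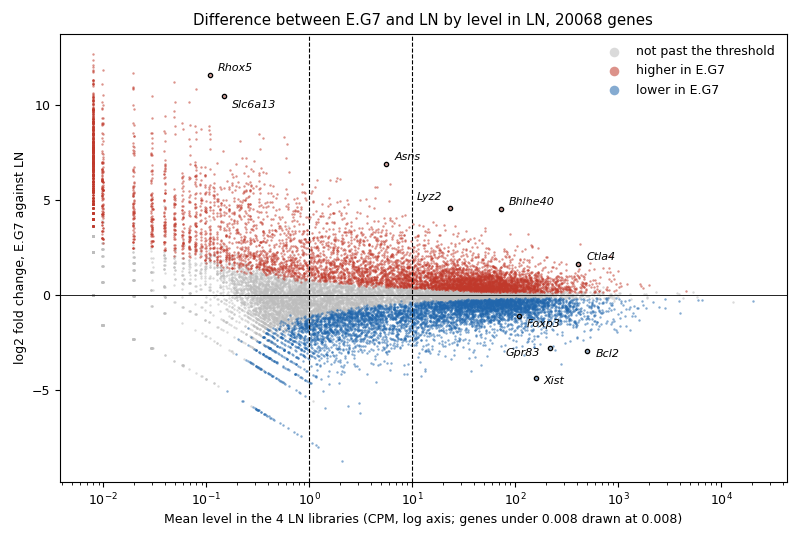
Each point is 1 of 20068 genes, with the mean level over the 4 LN libraries on the x axis (CPM, log axis) and the log2 fold change of E.G7 against LN on the y axis; red and blue points passed the test, grey ones did not, and dashed lines mark 1 and 10 CPM. Right of 10 CPM only Lyz2 and Bhlhe40 rise past 16-fold, while left of 1 CPM the points spread far upward.

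Among well expressed genes the largest rise was that of Lyz2, the lysozyme of myeloid cells, at 17.6, 22.1, 25.7 and 27 CPM in the LN libraries and 533 and 571 CPM in the E.G7 libraries (log2 fold change 4.58, SE 0.13, adjusted p = 3.6e-11). It belongs to the macrophage markers above, and Hepa1-6 Treg libraries held 1979.6 CPM on average. Next came Bhlhe40 (chr6:108660629-108666925, mm10), a transcription factor of activated and tissue T cells, at 74.2, 64.5, 76.8 and 74.7 CPM in the LN libraries and 1734 and 1617 CPM in the E.G7 libraries (log2 fold change 4.53, SE 0.063, adjusted p = 5.75e-17). The libraries of each group lay close together and the groups were far apart. The nuclear factor Nfil3, which acts in cytokine programs of T cells, followed with 15.3, 18.9, 12.5 and 16.5 CPM in the LN libraries and 228 and 220.0 CPM in the E.G7 libraries (log2 fold change 3.82, SE 0.1, adjusted p = 1.44e-13). Fosl2, an AP-1 subunit, rose from a mean of 10.2 to 137 CPM (log2 fold change 3.75). The lamina gene Lmna rose from 17 to 220.5 CPM (log2 fold change 3.7) and the membrane-binding annexin Anxa2 from 51.3 to 586 CPM (log2 fold change 3.52). The other 4 of the 10 largest rises were Ncapg2 of the condensin II complex, the PCNA-binding factor Pclaf, the ribonucleotide reductase subunit Rrm2, and Prickle1 of planar cell polarity, with log2 fold changes of 3.71, 3.67, 3.64 and 3.65. In all 10 the libraries of the groups did not overlap, which the naming rule required.

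Predicted genes, Rik clones, pseudogenes and receptor segments were left out by the naming rule, and several of them fell further than the genes given here. Apart from Xist, the largest fall among the rest was that of Gpr15, a homing receptor for the large intestine, at 41.3, 45.2, 39 and 38.1 CPM in the LN libraries and 4.35 and 4.08 CPM in the E.G7 libraries (log2 fold change -3.28, SE 0.14, adjusted p = 1.85e-11). The survival factor Bcl2 (chr1:106538178-106714274) stood at 514, 444, 537 and 504 CPM in the LN libraries and 65.6 and 63.6 CPM in the E.G7 libraries (log2 fold change -2.95, SE 0.084, adjusted p = 1.25e-13), and no E.G7 library came near the LN range. Gata1, a transcription factor known from red cell and mast cell development, fell from 39.4 to 4.92 CPM (log2 fold change -3.0). Gbp2b, an interferon-induced GTPase, lay at 17.6, 17.5, 17.4 and 18.3 CPM in the LN libraries and 2.08 and 2.06 CPM in the E.G7 libraries (log2 fold change -3.09, SE 0.14, adjusted p = 2.08e-11). In Hepa1-6 its mean was 32.8 CPM, above LN, so that the tumours moved in opposite directions (E.G7 minus Hepa1-6 -3.98 on the log2 scale, adjusted p = 3.18e-12). The guanylate cyclase subunit Gucy1a1, the potassium channel partner Kcnip2, the zinc finger gene Zfp763, the transporter gene Slc16a5 and Tmie had log2 fold changes of -3.14, -3.21, -3.02, -2.93 and -2.93. These 5 genes lay under 3 CPM in both E.G7 libraries.

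**Figure D2:**
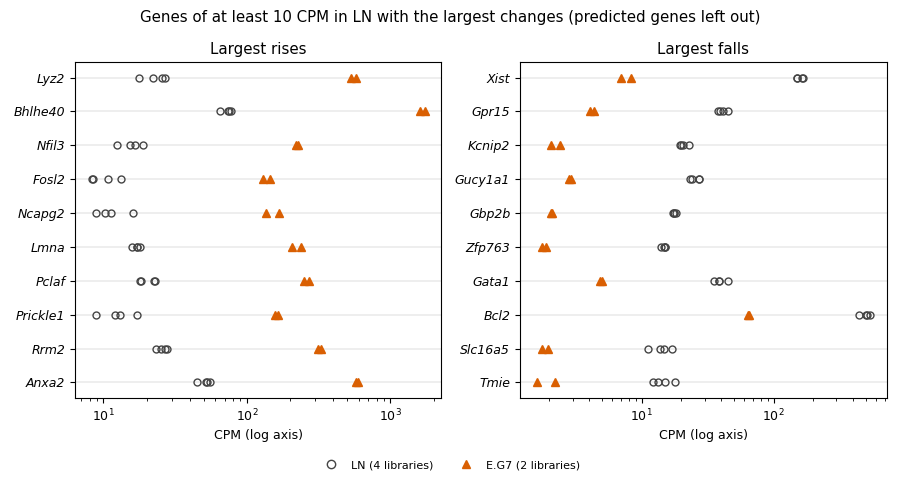
CPM (log axis) in each of the 4 LN libraries (circles) and 2 E.G7 libraries (triangles) for the 10 largest rises and the 10 largest falls among genes of at least 10 CPM in LN, with predicted genes, Rik clones, pseudogenes and receptor segments left out. In each of the 20 genes the triangles lie outside the range of the circles, which the rule that chose them required.

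Genes of the Treg program did not move as 1 block. The list of Treg identity genes had 2 of 14 higher and 10 lower (median log2 fold change -0.78). Scaled to pan T cell genes it was 4 and 8 (-0.42). Over all genes 32.7% were higher and 27.2% lower, and over well expressed genes 34.9% and 37.6%. The latter shares are the closer measure where all members were well expressed. That holds for this list and for the homing, receptor complex, JAK and STAT, interferon-gamma GTPase and GIMAP lists below. Gpr83, an orphan receptor of resting Treg cells, showed the largest fall of the list, at 218, 220.3, 208 and 229 CPM in the LN libraries and 31.6 and 31.9 CPM in the E.G7 libraries (log2 fold change -2.78, SE 0.093, adjusted p = 8.04e-13). Nrp1, a semaphorin co-receptor often used to mark thymus-derived Treg cells, lay at 457, 474, 504 and 491 CPM in the LN libraries and 170.5 and 162 CPM in the E.G7 libraries (log2 fold change -1.54, SE 0.06, adjusted p = 4.98e-12). The folate receptor gene Izumo1r fell from 617 to 215 CPM, log2 fold change -1.52, and the Ikaros factor Ikzf4 from 265 to 132 CPM, log2 fold change -1.01. Itgae, the integrin chain that binds E-cadherin, fell from 319.9 to 110.4 CPM, log2 fold change -1.53. Ctla4 and the TNF receptor Tnfrsf18 were the 2 members that rose. The list's median in Hepa1-6 against the same LN libraries was 0.03, and tested directly 13 of 14 members were lower in E.G7 than in Hepa1-6 (26.1% of all genes were).

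Factors of effector Treg cells went the other way, with 11 of 12 higher (median 2.13). For this and the lists below of which no member was called in 1 direction, the count in that direction was 0 at an unadjusted p under 0.05 in edgeR and in DESeq2 and limma-voom as well, except where a count is given. Beside Bhlhe40 and Nfil3 they included Id2, an inhibitor of helix-loop-helix factors, at 108, 105, 99.8 and 104 CPM in the LN libraries and 623 and 619.9 CPM in the E.G7 libraries (log2 fold change 2.58, SE 0.053, adjusted p = 3.5e-15), and Rora, a nuclear receptor, at 100.2, 95.5, 102 and 99.8 CPM in the LN libraries and 542 and 495 CPM in the E.G7 libraries (log2 fold change 2.38, SE 0.06, adjusted p = 3.52e-14). Prdm1, which encodes Blimp-1, rose from 28.6 to 106 CPM, log2 fold change 1.88. Gata3 did not pass the test (396 to 430.4 CPM). Among 12 suppressive mediators 9 were higher and 2 lower (median 1.71). Areg, a growth factor of tissue repair, lay at 4.15, 4.63, 4.34 and 3.85 CPM in the LN libraries and 98.4 and 108 CPM in the E.G7 libraries (log2 fold change 4.6, SE 0.081, adjusted p = 9.17e-16). Il10 rose from 8.51 to 157 CPM, log2 fold change 4.2, and Gzmb, a granzyme, from 6.01 to 185 CPM, log2 fold change 4.95. Fgl2, a secreted suppressor of antigen-presenting cells that macrophages also make, rose from 26.3 to 158 CPM, log2 fold change 2.58. Nt5e, the ecto-enzyme that forms adenosine, fell from 382 to 151 CPM, log2 fold change -1.34. Granzyme and macrophage genes are shared with the CD8, NK and macrophage markers above, whose part was not tested.

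Surface receptors split by family. Of 12 inhibitory receptors 7 rose and 5 fell (median 1.38). Tigit stood at 128, 123, 123 and 123 CPM in the LN libraries and 662 and 673 CPM in the E.G7 libraries (log2 fold change 2.43, SE 0.054, adjusted p = 9.11e-15) and Lag3 at 35, 37.6, 36.7 and 36.6 CPM in the LN libraries and 181 and 184 CPM in the E.G7 libraries (log2 fold change 2.32, SE 0.056, adjusted p = 2.33e-14); the groups did not overlap. Havcr2, the gene of TIM-3, rose from 6.03 to 92.1 CPM, log2 fold change 3.93, and Klrg1, a lectin receptor of late effector cells, from 13.2 to 137 CPM, log2 fold change 3.37. The 5 that fell were Cd200, Btla, Vsir, Cd160 and Cd200r1, between -1.85 and -0.63 on the log2 scale. Among 10 costimulatory receptors 7 rose and 3 fell. Tnfrsf9, the gene of 4-1BB, lay at 205, 227, 187 and 203 CPM in the LN libraries and 834 and 828 CPM in the E.G7 libraries (log2 fold change 2.02, SE 0.06, adjusted p = 2.01e-13), and Icos at 380.1, 389, 365 and 385 CPM in the LN libraries and 849 and 862 CPM in the E.G7 libraries (log2 fold change 1.17, SE 0.047, adjusted p = 6.85e-12). In contrast Tnfrsf25, the death receptor DR3, lay at 147, 153, 156 and 157 CPM in the LN libraries and 35.5 and 34.2 CPM in the E.G7 libraries (log2 fold change -2.14, SE 0.075, adjusted p = 1.29e-12), and Cd27 fell from 471 to 216 CPM, log2 fold change -1.12.

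Helper programs, the question of the submitters, were uneven. Th1 genes had 11 of 14 higher and 3 lower, and from 1 CPM in LN 9 of 12 were higher and 3 lower. The risers included the chemokine genes Ccl3 (mean 0.109 to 23.1 CPM, log2 fold change 7.67) and Ccl4 (1.15 to 58.7 CPM, log2 fold change 5.67). The interleukin-12 receptor chain Il12rb2 rose from 0.718 to 23.6 CPM, log2 fold change 5.03, while the signal transducer Stat4 fell from 79.3 to 56.9 CPM, log2 fold change -0.48. Ccl3 and Il12rb2 were under 1 CPM in LN, so their rises are partly fixed by the filter. All 14 Th1 genes were lower in E.G7 than in Hepa1-6. Of 9 tested Th2 genes 1 was higher and 4 lower. The 9 tested Th17 genes had 7 higher and 2 lower, but 4 of the 7 were under 1 CPM in LN, such as Il17f (0.119 to 4.53 CPM). Of 9 follicular helper genes 3 rose and 6 fell. Cxcr5, the receptor for B cell follicles, fell from 74.3 to 23.2 CPM, log2 fold change -1.68, and Pdcd1, the gene of PD-1, rose to 391 and 351 CPM from 162, 172, 153 and 184 CPM in LN.

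Genes of lymphoid homing and the resting state fell: 12 of 14 were lower and 1 higher (median -1.22). S1pr1, through which T cells leave lymph nodes, lay at 557, 569, 533 and 568 CPM in the LN libraries and 202 and 183 CPM in the E.G7 libraries (log2 fold change -1.53, SE 0.065, adjusted p = 1.26e-11). The quiescence factor Klf3 fell from 101 to 18.9 CPM, log2 fold change -2.42. Lef1 fell from 394 to 129 CPM, log2 fold change -1.61 and Bach2, which holds T cells back from effector fates, from 78.9 to 19.7 CPM, log2 fold change -2.0. Il6ra, a chain of the interleukin-6 receptor, lay at 347, 322, 355 and 336 CPM in the LN libraries and 67.9 and 61.8 CPM in the E.G7 libraries (log2 fold change -2.39, SE 0.071, adjusted p = 2.13e-13). Ccr7 did not pass the test, with means of 732 to 669 CPM, and Tcf7, the partner of Lef1 in naive and memory T cells, rose from 362 to 578 CPM, log2 fold change 0.67. Tested against Hepa1-6 directly, 9 of the 14 were higher in E.G7 and 3 lower (19.6% and 26.1% of all genes). Chemokine receptors rose in 10 of 14 cases and fell in 3 (median 1.73), and from 1 CPM in LN 8 of 12 rose and 3 fell (1.34). Ccr2, a receptor for monocyte chemokines, lay at 27.4, 31, 28 and 28.7 CPM in the LN libraries and 199 and 186 CPM in the E.G7 libraries (log2 fold change 2.75, SE 0.063, adjusted p = 1.18e-14). Cxcr6 lay at 32.1, 40, 31.5 and 37.1 CPM in the LN libraries and 249 and 260.4 CPM in the E.G7 libraries and Ccr8, a receptor of tumour Treg cells, at 93.6, 98.2, 98.3 and 102 CPM in the LN libraries and 410.0 and 424 CPM in the E.G7 libraries. Ccr9, the receptor for the gut and thymus, rose from 14.2 to 93.4 CPM, log2 fold change 2.72. The 3 that fell were Cxcr5, Ccr6 and Ccr4.

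Adhesion genes were mixed, with 5 of 16 higher and 8 lower (median -0.44). Itgav, the alpha V integrin chain, lay at 93, 88.6, 84.1 and 85.5 CPM in the LN libraries and 366 and 339.7 CPM in the E.G7 libraries (log2 fold change 2.01, SE 0.058, adjusted p = 1.55e-13), and Icam1 rose from 97.5 to 198 CPM, log2 fold change 1.02. Itga4 fell from 279 to 108 CPM, log2 fold change -1.37 and Itga6 from 103 to 41.7 CPM, log2 fold change -1.3. Compared with Hepa1-6, 15 of the 16 were lower in E.G7. By contrast 11 of 13 genes of the S100, annexin and galectin group rose (median 1.58). Lgals3 lay at 5.85, 7.25, 6.51 and 7.03 CPM in the LN libraries and 84 and 101 CPM in the E.G7 libraries (log2 fold change 3.79, SE 0.083, adjusted p = 6.93e-15). Lgals1 rose from 146 to 839 CPM, log2 fold change 2.52, S100a4 from 18.6 to 95 CPM, log2 fold change 2.35 and the phospholipid-binding Anxa1 from 4.71 to 51.7 CPM, log2 fold change 3.45. Macrophages express several of these genes strongly, and the part of their RNA was not tested.

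The receptor list and the list of genes that respond to it were counted apart, and the 2 lists were not compared by a test. Of 15 genes of the receptor complex and its proximal kinases 10 fell, by small steps, and 0 rose in edgeR (median -0.22). In the rising direction 1 had an unadjusted p under 0.05 in edgeR, and 1 each was called in DESeq2 and limma-voom. Scaled to pan T cell genes the median turned to 0.14 with 7 higher and 3 lower. The pan T cell list had the same median of -0.22, so scaling to it takes out a fall that both lists share. That scaling therefore cannot decide the direction. Under RLE and upper-quartile scaling 9 and 11 fell and 1 and 0 rose. Lck, the first kinase of the cascade, lay at 1555, 1564, 1511 and 1640.2 CPM in the LN libraries and 1010.5 and 972 CPM in the E.G7 libraries (log2 fold change -0.66, SE 0.051, adjusted p = 1.79e-08). The response genes had 8 of 14 higher and 3 lower. The orphan receptor Nr4a1, induced by receptor engagement, lay at 164, 164, 169.5 and 166 CPM in the LN libraries and 943 and 879 CPM in the E.G7 libraries (log2 fold change 2.46, SE 0.05, adjusted p = 3.38e-15), and Nr4a2 at 13, 14.2, 16.6 and 13.5 CPM in the LN libraries and 161 and 159 CPM in the E.G7 libraries (log2 fold change 3.48, SE 0.08, adjusted p = 1.18e-14). Egr1 rose from 175 to 570.2 CPM, log2 fold change 1.7, while Egr2 fell from 69.4 to 40.8 CPM, log2 fold change -0.77 and Egr3 from 12.1 to 5.47 CPM, log2 fold change -1.15, so the Egr family divided. AP-1 and immediate early genes were higher in 10 of 12 cases. Atf3, a stress-induced partner of AP-1, lay at 0.0791, 0.463, 0.241 and 0.0777 CPM in the LN libraries and 62.9 and 59.2 CPM in the E.G7 libraries (log2 fold change 8.11, given without a test since the gene is under 1 CPM in LN). Junb rose from 991 to 2399 CPM, log2 fold change 1.28, and Jun fell from 505 to 235 CPM, log2 fold change -1.11. Tissue handling can move such genes; the tumour samples went through an isolation of infiltrating lymphocytes that is not described for LN, and its part was not tested.

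In the NF-kB pathway 8 of 13 genes rose and 1 fell. The feedback inhibitor Tnfaip3 (A20) lay at 403, 413, 443 and 432 CPM in the LN libraries and 2855 and 2533 CPM in the E.G7 libraries (log2 fold change 2.67, SE 0.053, adjusted p = 2.87e-15), and Nfkbia at 529, 539, 508 and 542 CPM in the LN libraries and 1649 and 1726 CPM in the E.G7 libraries (log2 fold change 1.67, SE 0.045, adjusted p = 7.18e-14). Rel, the subunit that Treg development needs, rose from 147 to 339.8 CPM, log2 fold change 1.2. Of 20 cytokine receptor genes 5 rose and 13 fell (median -0.35, or 0.01 scaled to pan T cell genes), and 18 were lower than in Hepa1-6. Ifngr1 rose from 315 to 980.2 CPM, log2 fold change 1.64 and the decoy receptor Il1r2 from 78.8 to 244 CPM, log2 fold change 1.63. The receptor chains for transforming growth factor beta fell, Tgfbr1 from 126 to 50.8 CPM, log2 fold change -1.32 and Tgfbr2 from 332 to 162 CPM, log2 fold change -1.04, as did the interleukin-6 signal chain Il6st (352 to 169 CPM, log2 fold change -1.06) and Il27ra (501 to 238 CPM, log2 fold change -1.07). JAK, STAT and SOCS genes had 4 of 16 higher and 8 lower (median -0.2), which turned to 8 and 5 (0.16) scaled to pan T cell genes. Jak2 rose from 50.8 to 116 CPM, log2 fold change 1.19 and Socs3 from 99.4 to 221 CPM, log2 fold change 1.15, while Jak1 fell from 1206 to 722 CPM, log2 fold change -0.74. Small lists on glucocorticoid response and the clock showed no common direction, with 3 of 8 and 4 of 12 higher and 3 and 5 lower; the clock's median turned scaled to pan T cell genes. Within them Sgk1, a kinase, lay at 35.2, 30.5, 37.2 and 31.8 CPM in the LN libraries and 358 and 329 CPM in the E.G7 libraries (log2 fold change 3.35, SE 0.074, adjusted p = 8.66e-15), Per1 rose from 62.1 to 228 CPM, log2 fold change 1.88, and Per2 fell from 14.7 to 4.29 CPM, log2 fold change -1.77.

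Genes induced by interferon were counted in 2 lists. Of 15 GTPases of the guanylate-binding and immunity-related families, which interferon gamma induces to attack intracellular pathogens, 14 fell (median -1.03), and scaled to pan T cell genes 12 fell and 1 rose (-0.67). Iigp1 lay at 147, 148, 139.5 and 141 CPM in the LN libraries and 57.7 and 54.9 CPM in the E.G7 libraries (log2 fold change -1.35, SE 0.066, adjusted p = 7.45e-11). Gbp8 lay at 143, 149, 142 and 151 CPM in the LN libraries and 59.6 and 58.1 CPM in the E.G7 libraries (log2 fold change -1.31, SE 0.075, adjusted p = 4.28e-10), and Ifi47 fell from 484 to 203 CPM, log2 fold change -1.25. The groups did not overlap in these 3 genes. All 15 were lower than in Hepa1-6, where their median against LN was 0.01. In the type I interferon list 13 of 21 fell and 6 rose (median -0.51), and scaled to pan T cell genes 9 fell and 7 rose (-0.16). Usp18, a brake on interferon signalling, lay at 85.8, 86.5, 86.8 and 93.8 CPM in the LN libraries and 21.4 and 21.7 CPM in the E.G7 libraries (log2 fold change -2.03, SE 0.081, adjusted p = 5.95e-12), and Irf9 fell from 262 to 109.9 CPM, log2 fold change -1.26. Among the 6 that rose were Mx1 (8.99 to 18.8 CPM, log2 fold change 1.06) and Bst2 (67 to 112 CPM, log2 fold change 0.74). MHC class I loading was mixed, with 4 of 13 higher and 6 lower (median -0.14), and its direction turned scaled to pan T cell genes (0.22, 9 higher and 1 lower). Nlrc5, the transactivator of MHC class I genes, fell from 663 to 303 CPM, log2 fold change -1.13, and the chaperone Calr rose from 259 to 515 CPM, log2 fold change 0.99. The GIMAP GTPases, which support the survival of lymphocytes, had 6 of 8 lower. Gimap3 lay at 1529.7, 1553, 1603 and 1660.2 CPM in the LN libraries and 673 and 627 CPM in the E.G7 libraries (log2 fold change -1.29, SE 0.053, adjusted p = 1.01e-11).

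All 22 cell cycle genes rose (median 2.69), and all 22 were also higher than in Hepa1-6, where their median against LN was 1.85. Rrm2, which makes deoxynucleotides, lay at 27.9, 23.3, 25.3 and 26.7 CPM in the LN libraries and 331 and 311 CPM in the E.G7 libraries (log2 fold change 3.64, SE 0.074, adjusted p = 3.43e-15). Ccnb1, the mitotic cyclin, lay at 9.45, 8.33, 8.23 and 9.21 CPM in the LN libraries and 93.2 and 92.8 CPM in the E.G7 libraries (log2 fold change 3.4, SE 0.094, adjusted p = 1.04e-13). Mki67, the gene of the division marker Ki-67, lay at 23.3, 28.6, 25.5 and 25.6 CPM in the LN libraries and 159.7 and 168 CPM in the E.G7 libraries (log2 fold change 2.67, SE 0.077, adjusted p = 1.59e-13). The mitotic kinase Cdk1 rose from 6.32 to 94.1 CPM, log2 fold change 3.9, the topoisomerase Top2a from 39.8 to 323 CPM, log2 fold change 3.02 and the checkpoint kinase Bub1 from 3.68 to 51.7 CPM, log2 fold change 3.81. The smallest rises were those of the replication clamp Pcna (116 to 279 CPM, log2 fold change 1.26) and the helicase subunit Mcm4 (133 to 326 CPM, log2 fold change 1.29). Cycling lymphoma cells carry the same transcripts, and their part was not tested. RefSeq promoters (GRCm38.p6, from 250 bases before to 50 after the start) were matched for 18 of the 22 genes, 19 starts in all. The letters CCAAT, the box bound by NF-Y in many cell cycle promoters, stood on either strand in 84.2% of them, against 37.2% of 15626 promoters of tested genes. The E2F-type letters TTTCGCG stood in 21.1% against 1.48%. A match is a description of letters, not of binding. The 150 bases before the start, shown because these genes moved together, are printed 5′ to 3′ on the gene's strand with matches to CCAAT (or ATTGG, the other strand) and TTTCGCG in capitals, for Rrm2 (chr12:24708104-24708253, plus strand), Ccnb2 (chr9:70421555-70421704, minus strand) and Cdk1 (chr10:69352913-69353062, minus strand).
Rrm2: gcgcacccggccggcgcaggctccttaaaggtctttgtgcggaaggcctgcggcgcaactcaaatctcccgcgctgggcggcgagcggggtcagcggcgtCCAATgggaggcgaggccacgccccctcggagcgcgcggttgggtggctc
Ccnb2: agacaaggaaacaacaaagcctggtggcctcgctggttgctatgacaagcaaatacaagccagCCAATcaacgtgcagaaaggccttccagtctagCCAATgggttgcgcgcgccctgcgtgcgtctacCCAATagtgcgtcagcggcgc
Cdk1: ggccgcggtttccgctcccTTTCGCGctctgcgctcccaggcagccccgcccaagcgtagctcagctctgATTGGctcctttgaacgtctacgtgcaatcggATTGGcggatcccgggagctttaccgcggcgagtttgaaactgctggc

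Glycolysis genes rose in 16 of 17 cases (median 1.46). Tpi1, the triose phosphate isomerase, lay at 85.9, 90.7, 87.1 and 90.4 CPM in the LN libraries and 806 and 841 CPM in the E.G7 libraries (log2 fold change 3.22, SE 0.054, adjusted p = 6.13e-16). Pgam1 lay at 54.6, 60, 51.1 and 52.8 CPM in the LN libraries and 302 and 317 CPM in the E.G7 libraries (log2 fold change 2.5, SE 0.062, adjusted p = 3.18e-14) and Pgk1 at 112, 124, 107 and 119.5 CPM in the LN libraries and 581 and 572 CPM in the E.G7 libraries (log2 fold change 2.32, SE 0.06, adjusted p = 4.89e-14). The groups did not overlap in any of the 3. Ldha, which turns pyruvate into lactate, rose from 842 to 3488 CPM, log2 fold change 2.05, the lactate exporter Slc16a3 from 11.1 to 83.7 CPM, log2 fold change 2.91, and Hk2, the inducible hexokinase, from 4.93 to 42 CPM, log2 fold change 3.09. Hk1 did not pass the test (182 to 204 CPM). Of 11 hypoxia genes 8 rose (median 1.7), and 1 was lower at an unadjusted p under 0.05. Leaving out the 3 under 1 CPM in LN, 6 of 8 rose (median 1.24). Egln3, an oxygen-sensing hydroxylase, lay at 6.37, 5.44, 6.07 and 6.56 CPM in the LN libraries and 99.8 and 103 CPM in the E.G7 libraries (log2 fold change 4.05, SE 0.086, adjusted p = 5.66e-15), Hif1a rose from 278 to 916 CPM, log2 fold change 1.72, and the mitophagy gene Bnip3 from 7.33 to 42 CPM, log2 fold change 2.52. Compared with Hepa1-6, 11 of the 17 glycolysis genes and 9 of the 11 hypoxia genes were lower in E.G7. The letters ACGTG, the core of the hypoxia response element and of E-boxes, stood in 13 of 26 glycolysis promoters and 8 of 13 hypoxia promoters, against 24.1% of all. They are in capitals, CACGT being the other strand, in the 150 bases before the start of Ldha (chr7:46845654-46845803, plus strand) and Bnip3 (chr7:138909507-138909656, minus strand), where CACGTG holds the letters on both strands. The same stretch held 0 matches for Tpi1, Egln3, the Eno1 starts and a second start of Ldha.
Ldha: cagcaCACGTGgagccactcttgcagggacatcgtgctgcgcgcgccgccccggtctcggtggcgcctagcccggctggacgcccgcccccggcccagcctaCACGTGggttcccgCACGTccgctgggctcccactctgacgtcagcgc
Bnip3: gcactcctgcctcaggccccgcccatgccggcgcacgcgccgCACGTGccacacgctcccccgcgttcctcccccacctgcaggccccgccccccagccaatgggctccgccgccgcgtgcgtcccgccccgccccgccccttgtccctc

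The respiratory chain is built from nuclear and mitochondrial genes, and only the nuclear ones passed the test. Of 77 nuclear subunits 73 rose (median 0.91), and 63 were higher than in Hepa1-6. Sdhd of complex II lay at 91.7, 93.7, 82.7 and 84.6 CPM in the LN libraries and 198 and 204 CPM in the E.G7 libraries (log2 fold change 1.19, SE 0.073, adjusted p = 1.02e-09), and Ndufa8 of complex I at 58.4, 68.3, 54.3 and 63.6 CPM in the LN libraries and 145 and 154 CPM in the E.G7 libraries (log2 fold change 1.29, SE 0.085, adjusted p = 2.54e-09). Of the 13 genes encoded in mitochondrial DNA 0 passed in either direction in edgeR (median 0.05); 1 was higher at an unadjusted p under 0.05, 3 in DESeq2 and 1 in limma-voom. Under upper-quartile scaling that median was -0.07, and scaled to pan T cell genes it was 0.41 with 7 higher. mt-Cytb lay at 3856, 3838, 3664 and 3546 CPM in the LN libraries and 3867 and 4197 CPM in the E.G7 libraries, apart by a small step in library 1 (log2 fold change 0.11, adjusted p = 0.103). Of 77 tested mitochondrial ribosomal proteins 63 rose and 2 fell (median 0.56). Among 83 cytosolic ribosomal proteins 29 rose and 2 fell (median 0.2), close to the 32.7% of all genes that rose, and 18 rose without E.G7 library 2. Scaled to pan T cell genes, where 8922 of all 20068 genes were higher, 66 of the 83 rose and 0 fell (median 0.56), and under upper-quartile scaling 22 rose and 7 fell, so this count depends on the scale. Of the 2 that fell, Rps27 went from 520.3 to 333 CPM, log2 fold change -0.64; Rps27l, a p53-responsive relative, rose with the largest change, at 30.5, 30.6, 26.5 and 31.3 CPM in the LN libraries and 120.0 and 124 CPM in the E.G7 libraries (log2 fold change 2.04, SE 0.11, adjusted p = 1.52e-10). Reads of ribosomal protein genes may be shared with their many processed copies, so single values are uncertain. Of 38 tested proteasome subunits 34 rose and 1 fell (median 0.73); the 1 was Psmb10, an immunoproteasome subunit (145 to 122 CPM, log2 fold change -0.25), whose direction turns scaled to pan T cell genes. Psmd7 of the regulatory cap lay at 91.8, 100.2, 88.4 and 87.9 CPM in the LN libraries and 205 and 214 CPM in the E.G7 libraries (log2 fold change 1.19, SE 0.064, adjusted p = 2.41e-10).

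Gene length moved with the difference, which touches these families of short genes. Among well expressed genes split by length into 5 groups of like size, the median log2 fold change fell from 0.21 in the shortest to -0.3 in the longest, and the share of genes that rose from 46.8% to 21.1%. In Hepa1-6 against LN the same groups ran from 0.05 to -0.21. With the trend over length taken out, an alternative added after the data were seen, the counts of risers and fallers became 66 and 1 of 77 for nuclear respiratory subunits, 52 and 2 of 77 for mitochondrial ribosomal proteins, and 32 and 1 of 38 for the proteasome. Cytosolic ribosomal proteins then had 19 risers and 15 fallers (median 0.03), and the mitochondrially encoded genes 0 and 6 (median -0.2). Cell cycle and glycolysis had 22 and 16 risers. The part of RNA quality or library preparation in the length trend was not tested.

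**Figure D3:**
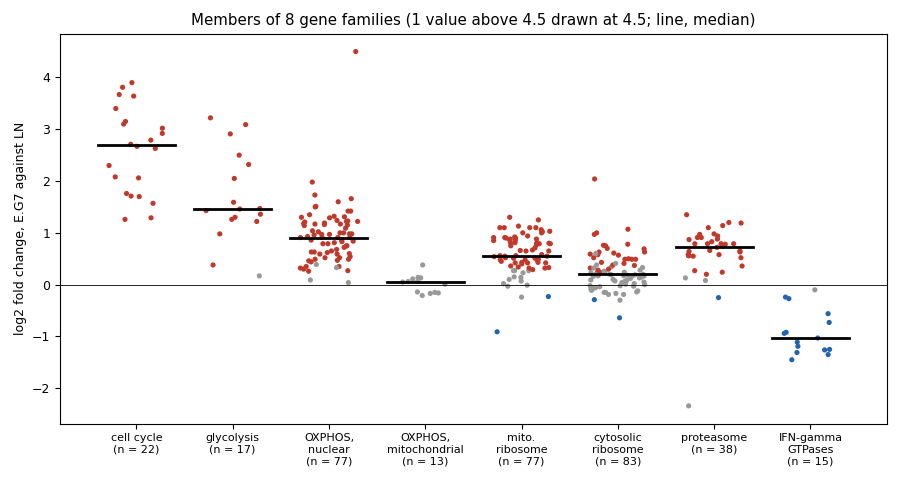
Log2 fold change of E.G7 against LN (y axis) for each tested member of 8 gene families (x axis, n members); red points rose, blue points fell, grey points did not pass the test, and bars mark medians. Nuclear respiratory subunits centre on 0.91 and the 13 mitochondrially encoded genes on 0.05, while the interferon-gamma GTPases lie below 0.

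Amino acid supply stood out in Asns, the enzyme that makes asparagine (chr6:7675169-7693254, mm10). It lay at 5.46, 6.52, 4.58 and 5.67 CPM in the LN libraries and 661 and 651 CPM in the E.G7 libraries (log2 fold change 6.88, SE 0.096, adjusted p = 5.75e-17), the largest change of any named gene between 1 and 10 CPM in LN. The groups did not overlap, which the naming rule required. Hepa1-6 held 84.7 CPM on average, and E.G7 was above it by 2.95 on the log2 scale (adjusted p = 2.34e-13). Of 13 genes of the unfolded protein response list, to which Asns was assigned, 12 rose (median 1.18). Hspa5, the chaperone BiP, lay at 566, 581, 582 and 603 CPM in the LN libraries and 1596 and 1454 CPM in the E.G7 libraries (log2 fold change 1.39, SE 0.049, adjusted p = 1.51e-12), and Trib3, a pseudokinase induced by the factor Atf4, at 5.34, 4.82, 5.7 and 5.52 CPM in the LN libraries and 37.4 and 36.7 CPM in the E.G7 libraries (log2 fold change 2.79, SE 0.11, adjusted p = 7.73e-12). Atf4 itself rose from 136 to 299 CPM, log2 fold change 1.14, and Ddit3 did not pass the test (23.8 to 20.5 CPM). A few further metabolic genes were chosen after their values were seen and stand for no list. Psat1 lay at 61.4, 65.5, 55.8 and 64.9 CPM in the LN libraries and 278 and 259.8 CPM in the E.G7 libraries, and Phgdh rose from 194 to 548 CPM, Shmt2 from 111 to 222 CPM and Mthfd2 from 76.4 to 167 CPM, while Cth was not called and lay under 1 CPM in LN and E.G7 (adjusted p = 0.197 in edgeR). Amino acid transporters rose in 9 of 11 cases (median 1.27). The cystine transporter Slc7a11 lay at 0.0791, 0.0771, 0.121 and 0.0777 CPM in the LN libraries and 42.4 and 36 CPM in the E.G7 libraries (log2 fold change 8.72, without a test for the same reason as Atf3). Its partner Slc3a2 rose from 200.4 to 801 CPM, log2 fold change 2.0, and Slc1a5, a glutamine transporter, did not pass the test (408 to 443 CPM). The 150 bases before the start of Asns (chr6:7693210-7693359, minus strand) are shown because of the size of its change. Capitals mark CACGT, the other strand of ACGTG, and TGATGAA, the core of the element through which Atf4 acts, a motif chosen after these values were seen and present in 2.09% of all promoters.
Asns: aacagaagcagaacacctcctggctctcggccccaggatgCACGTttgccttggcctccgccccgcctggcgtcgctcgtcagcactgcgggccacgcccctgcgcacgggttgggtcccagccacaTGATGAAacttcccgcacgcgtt

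Other growth and stress lists moved upward in part. Of 16 genes of MYC and ribosome biogenesis 12 rose and 1 fell; the 1 was Myc (276 to 245 CPM, log2 fold change -0.17), whose direction turns scaled to pan T cell genes, and Nop58 rose from 109.9 to 255 CPM, log2 fold change 1.22. In Hepa1-6 the list's median was -0.1, and 15 of the 16 were higher in E.G7. Cholesterol synthesis had 12 of 16 higher and 1 lower, led by Cyp51 (40.8 to 163 CPM, log2 fold change 2.0) and the squalene epoxidase Sqle (23.9 to 89.3 CPM, log2 fold change 1.9). Heat shock chaperones split: the mitochondrial Hspd1 rose from 189.7 to 671 CPM, log2 fold change 1.82 and Hsp90aa1 from 527 to 1305 CPM, log2 fold change 1.31, while Hspa1a (74.4 to 39.4 CPM, log2 fold change -0.91), Hspa1b (10.9 to 3.44 CPM, log2 fold change -1.67), Dnajb1 (432 to 269 CPM, log2 fold change -0.69) and Hspb1 (3.12 to 1.24 CPM, log2 fold change -1.33) fell. Oxidative stress defence was higher in 13 of 16 cases (median 1.51), with Txn1 (thioredoxin) rising from 83.6 to 397 CPM, log2 fold change 2.25. Its 4 members under 1 CPM in LN reached the test mostly through tumour libraries, and from 1 CPM 9 of 12 were higher (median 0.81). Of 12 p53 targets 9 rose and 1 fell (median 0.86), and of the 9 from 1 CPM in LN 7 rose and 1 fell (0.38). Cdkn1a, the cell cycle inhibitor p21, lay at 4.07, 4.01, 4.54 and 4.62 CPM in the LN libraries and 148 and 144 CPM in the E.G7 libraries (log2 fold change 5.09, SE 0.071, adjusted p = 5.75e-17), and the stress-induced Sesn2 rose from 19.1 to 91 CPM, log2 fold change 2.25. Cell death genes divided into 8 of 15 higher and 6 lower. The pro-death gene Pmaip1 (NOXA) lay at 13.6, 18.4, 20 and 17.6 CPM in the LN libraries and 134 and 119.6 CPM in the E.G7 libraries (log2 fold change 2.87, SE 0.1, adjusted p = 2.79e-12), and beside Bcl2 the death receptor Fas fell from 72.6 to 40.7 CPM, log2 fold change -0.84 and Bcl2l11 (BIM) from 106 to 66.5 CPM, log2 fold change -0.68. Chromatin enzymes also divided, 8 of 15 higher and 7 lower. Uhrf1 and Dnmt1, which copy DNA methylation at replication, rose from 32 to 244 CPM, log2 fold change 2.93 and from 154 to 286 CPM, log2 fold change 0.9. The demethylases Tet1 (31.1 to 4.65 CPM, log2 fold change -2.74), Tet2 (108 to 74 CPM, log2 fold change -0.55) and Tet3 (179 to 72.6 CPM, log2 fold change -1.3) all fell.

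**Figure D4:**
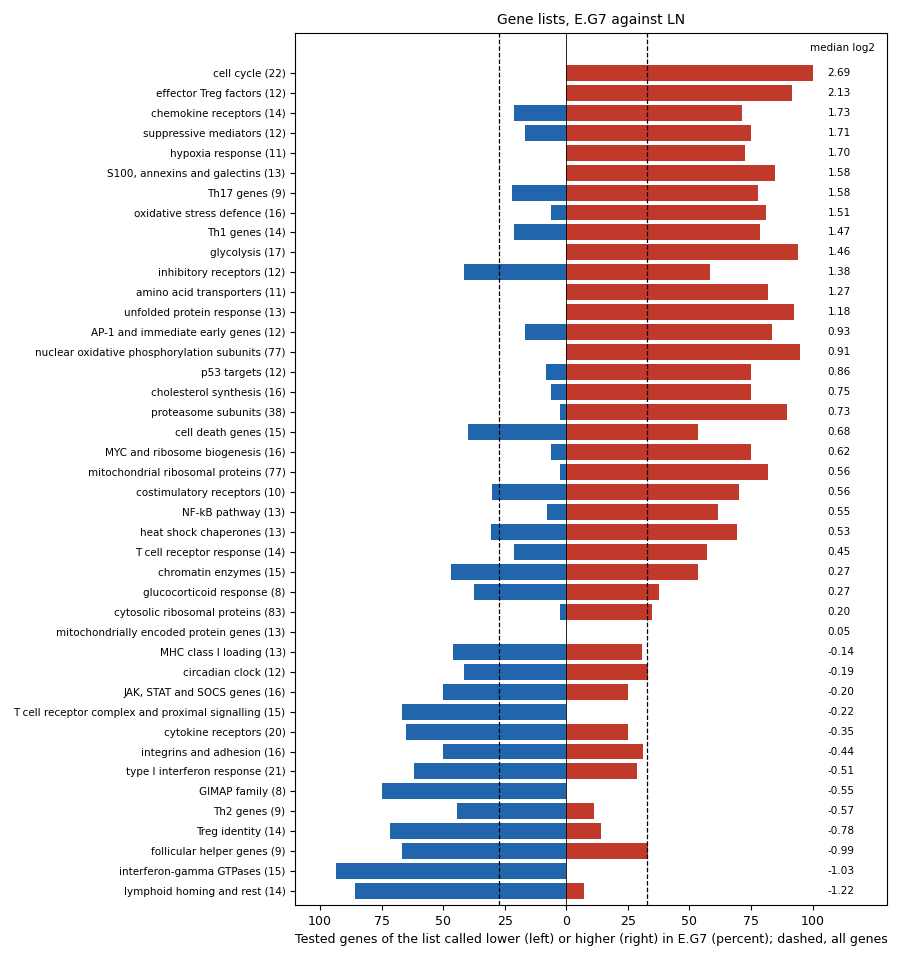
For 42 gene lists (tested members in brackets), bars show the percent of tested members higher (right, red) and lower (left, blue) in E.G7, with the list's median log2 fold change at the right; dashed lines mark all genes tested, 32.7% higher and 27.2% lower. Among genes of at least 10 CPM in LN the shares were 34.9% higher and 37.6% lower. Cell cycle has all its tested members higher, and interferon-gamma GTPases and lymphoid homing lie at the other end.

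Genes between 1 and 10 CPM in LN add 4 more large rises by the naming rule, beside Asns. Nedd4, a ubiquitin ligase, lay at 2.1, 1.85, 2.49 and 1.01 CPM in the LN libraries and 141 and 127 CPM in the E.G7 libraries (log2 fold change 6.17, SE 0.15, adjusted p = 1.92e-13), close to its Hepa1-6 mean of 138 CPM. Stard10, a phospholipid transfer protein, lay at 1.98, 2.08, 1.49 and 0.777 CPM in the LN libraries and 99.2 and 112 CPM in the E.G7 libraries (log2 fold change 6.06, SE 0.21, adjusted p = 3.91e-12), against 10.7 CPM in Hepa1-6. The transferrin gene Trf lay at 1.03, 2.62, 1.69 and 1.94 CPM in the LN libraries and 118 and 112 CPM in the E.G7 libraries and reached 1251 CPM in Hepa1-6. Lilr4b, an inhibitory receptor known from myeloid cells, lay at 1.66, 0.964, 2.25 and 2.99 CPM in the LN libraries and 155 and 115 CPM in the E.G7 libraries and reached 906 CPM in Hepa1-6. So Stard10 was higher in E.G7 than in the other tumour (3.3 on the log2 scale), and Trf and Lilr4b were lower (-3.44 and -2.75). No gene that fell in this range could meet the naming rule. It asks for at least 10 CPM in the higher group, which for a fall is LN, under 10 CPM here by definition.

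Genes under 1 CPM in LN with the highest E.G7 levels, which are not scaled for length, are described without weight on their test, since the filter favours those that rise. First was Rhox5 (chrX:37804842-37808876, mm10), a homeobox gene of the reproductive X-linked cluster, at 0.0395, 0.0771, 0.0803 and 0.233 CPM in LN and 330.1 and 341 CPM in E.G7. Its Hepa1-6 mean was 102 CPM, so it was high in both tumours. Slc6a13, a transporter of gamma-aminobutyric acid and taurine, lay at 0.0395, 0.0386, 0.321 and 0.194 CPM in LN and 208 and 224 CPM in E.G7, and at 0.442 CPM on average in Hepa1-6. Trap1a lay at 0, 0.0386, 0.0402 and 0.117 CPM in LN and 121 and 132 CPM in E.G7, with 0.0516 CPM in Hepa1-6. These latter 2, unlike Rhox5, were high in the E.G7 libraries alone, and E.G7 minus Hepa1-6 was 8.91 and 11.13 on the log2 scale. Esm1, a proteoglycan known from endothelium, was highest in E.G7 but lay above LN in Hepa1-6 as well. It was at 0.0395, 0.0386, 0 and 0.194 CPM in LN, 80.6 and 86.1 CPM in E.G7 and a mean of 2.92 CPM in Hepa1-6. The metal-binding Mt1 reached 171 and 188 CPM, the p53 target Perp 148 and 156 CPM, and the matrix proteoglycan Vcan 116 and 116 CPM, each above its Hepa1-6 mean. Fcgr2b, an inhibitory Fc receptor, reached 147 and 155 CPM and Spp1 (osteopontin) 76.2 and 98.5 CPM, both below their Hepa1-6 means of 284 and 313 CPM. Plcg2, the phospholipase of B and myeloid cells, reached 113 and 102 CPM.

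Antigen receptor segments give a further view of the cells. Of reads on 130 alpha variable segments (5486 and 5829 in the E.G7 libraries), Trav13n-4 took 7.71% and 8.30% in E.G7 against 0.667% in LN (SD 0.185, n = 4) and 0.238% in Hepa1-6. It was the most used alpha segment in E.G7 and the 48th in LN. Trav9-1 took 7.28% in E.G7 and 2.82% in LN. Of 35 beta segments the largest single share was 13% in E.G7 and 13.5% in LN, on totals of 16485 to 19631 reads in LN and 8085 and 8373 in E.G7. Trbv15 took 3.65% in LN and 6.06% in E.G7, while its own level was lower in E.G7 (log2 fold change -0.46, adjusted p = 0.00554 in edgeR), as was the total over beta segments. Reads of near-identical segments may be split, so single segments are uncertain. Gamma chain genes diverged: Trgc2 lay at 3.99, 4.43, 3.09 and 3.73 CPM in the LN libraries and 100.1 and 98.3 CPM in the E.G7 libraries (log2 fold change 4.7, SE 0.12, adjusted p = 5.05e-14) and Trgc4 at 4.63, 5.4, 4.26 and 3.77 CPM in the LN libraries and 32.8 and 32 CPM in the E.G7 libraries, while Trgc1 fell from 9.53 to 1.83 CPM. Trgv2 took 97.8% and 96.3% of reads on gamma variable segments in E.G7, 22.2% in LN (SD 11.8) and 88.1% in Hepa1-6. The LN shares rest on only 11, 16, 13 and 26 reads, against 773 and 828 in E.G7 and 124 to 133 in Hepa1-6. The delta constant gene Trdc fell from 7.08 to 1.59 CPM. Trgc2, Trgc4, Trgv2 and the segments were picked after their values were seen.

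Against Hepa1-6 directly, 3925 genes (19.6%) were higher in E.G7 and 5228 (26.1%) lower. Both tumour contrasts share the LN libraries, so values are given side by side. The homing, cell cycle and ribosome biogenesis lists lay higher in E.G7 than in Hepa1-6, with 9 of 14, 22 of 22 and 15 of 16 members called higher. Hypoxia, Th1, integrin, cytokine receptor and interferon-gamma GTPase lists lay lower, with 9 of 11, 14 of 14, 15 of 16, 18 of 20 and 15 of 15. Foxp3 averaged 108 CPM in LN, 50.2 CPM in E.G7 and 82 CPM in Hepa1-6 (E.G7 minus Hepa1-6 -0.71 on the log2 scale, adjusted p = 0.000158). Cd74, the invariant chain of MHC class II, averaged 142, 880.5 and 4909.5 CPM. The macrophage sums were thus higher in Hepa1-6 than in E.G7, while Trap1a, Dntt, Slc6a13 and Trgc2 were higher in E.G7.

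**Figure D5:**
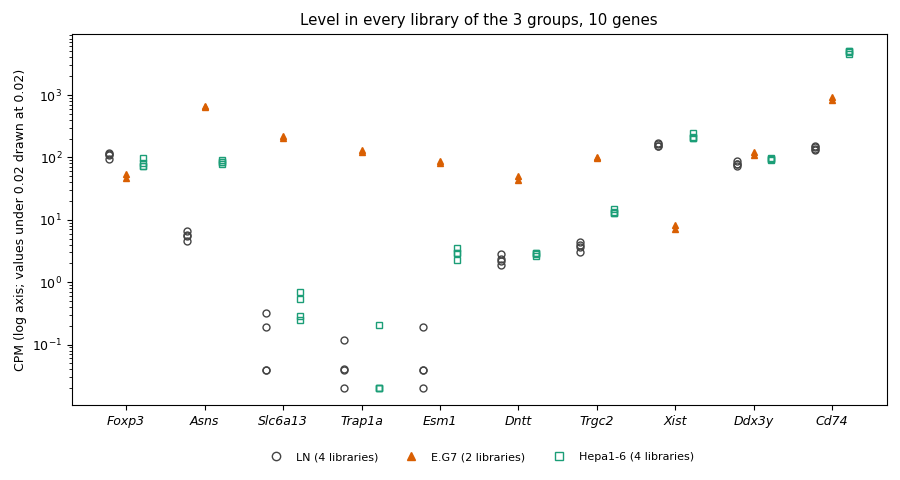
CPM (y axis, log; values under 0.02 drawn at 0.02) in each library of LN (circles), E.G7 (triangles) and Hepa1-6 (squares) for 10 genes. Slc6a13, Trap1a and Dntt are high in the 2 E.G7 libraries and low in both other groups, Xist is low in E.G7 alone, and Cd74 is highest in Hepa1-6.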

How the data were processed

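The authors deposited raw counts per gene (55291 genes) laid out as featureCounts writes them, per the file headers. Build mm10 is named in the submitters' processing notes, with DESeq2, RSEM, Subread, featureCounts and HISAT2 as software. Versions, strand setting and annotation release are not given in the sources used here. The authors deposited FPKM values for 12930 genes per library, per the file headers, which served only as an alternative. Groups came from sample titles.

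Genes were kept by filterByExpr (20068), libraries were scaled by TMM, and all 10 libraries entered 1 quasi-likelihood fit with 3 group means, so that E.G7 (n = 2) shares the spread of the other groups (edgeR 4.0.16, R 4.3.3; biological coefficient of variation 13%). The contrast was E.G7 minus LN, adjusted by Benjamini-Hochberg over all genes tested. SE is the log2 fold change over the square root of F. The fit was tested on simulated data. Replicates of a group differed by more than sampling noise (chi-square per degree of freedom 7.422 to 14.55 in LN and 8.354 in E.G7). A total of 3 counts, the limit that a count of 0 allows, are 0.0295 CPM over the LN and 0.0555 CPM over the E.G7 libraries, which covers counting error only.

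Named genes are Foxp3, Il2ra, Ctla4, Cd4, Cd3e and Ptprc, and those taken by the rules that follow. Rules on level took the 10 largest changes each way from 10 CPM in LN and the 10 highest E.G7 levels under 1 CPM. They also took the 5 largest changes each way from 1 to 10 CPM, where no faller could meet the rule. Further genes were up to 3 members per list by adjusted p or, for markers, by E.G7 level, and sex-linked genes. For the rules on level, genes had to have no overlap between groups and 10 CPM in the higher one. Predicted genes, pseudogenes and receptor segments were left out there. Other list members are given as means. The 42 program lists, 17 marker lists and the rules were chosen with earlier results of these data known, and no list was tested as a set. RefSeq promoters were matched by symbol for 12280 tested genes. Alternatives were RLE, upper-quartile and pan T cell scaling, limma-voom (limma 3.58.1), DESeq2 1.42.0, no filter, a filter of 10 CPM, only the 6 libraries, a replicate block, a fold of 1.5, log2(FPKM + 1) and log2(FPKM + 0.1), other limits on the level in LN, each library left out, and, added after the data were seen, a correction for gene length.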

Additional observations from a re-analysis of the deposited data

Results flagged for a closer look

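In 199 named genes the highest or lowest LN library was set against the other 3. It stood far from the others in 8 genes, no larger a share than the 1 in 20 or so that chance gives. They were Tigit in LN library 1 (127.8 CPM), Slamf6 in LN library 3 (513.1 CPM), Nr4a3 in LN library 4 (16.5 CPM), Usp18 in LN library 4 (93.8 CPM), Slc7a11 in LN library 3 (0.121 CPM), Hmox1 in LN library 1 (2.25 CPM), Rps27l in LN library 3 (26.5 CPM) and Pdgfrb in LN library 2 (0.0386 CPM). None of these values reached the E.G7 range of its gene. Over all LN libraries Pdgfrb rests on 1 count and Slc7a11 on 9.

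For 4 of the 199 genes named by rule E.G7 and Hepa1-6 moved in opposite directions from LN, each past the threshold, and the tumours differed in a direct test. The difference of E.G7 minus Hepa1-6 on the log2 scale was -4.81 for Xist, -3.98 for Gbp2b, -1.65 for Iigp1 and -4.85 for Afp, the fetal albumin that hepatoma cells make. Among genes picked after their values were seen, Trgc4 (4.94) and Mthfd2 (1.31) did the same, higher in E.G7 and lower in Hepa1-6 than in LN.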

How the results depend on the processing

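Of 199 named genes, 183 to 199 kept direction and side of the threshold under each alternative that tested nearly all of them. Cd4 turned to 0.16 (adjusted p = 0.0122) scaled to pan T cell genes, and with the length correction mt-Cytb turned to -0.21 (adjusted p = 0.00433) and mt-Nd1 to -0.17 (adjusted p = 0.0406). Counts of genes moved by over 1.5 times with the filter, the minimum fold, the scale and the FPKM values; the cause was not tested beyond fewer genes entering the stricter tests. The filter of 10 CPM left 4050 higher genes, with 816 higher and 127 lower from 1 to 10 CPM and 535 higher and 10 lower under 1 CPM. Against a fold of 1.5, 4144 were higher and 2876 lower, 1294 and 1474 of them from 10 CPM, with 1113 lower from 1 to 10 CPM and 289 lower under 1 CPM. Scaled to pan T cell genes 3326 were lower, 4714 rose and 1900 fell from 10 CPM, and 298 fell under 1 CPM. On log2(FPKM + 0.1), 3491 were lower, 409 of them from 1 to 10 CPM, with 877 higher and 13 lower under 1 CPM. On log2(FPKM + 1) these were 3538, 413, 741 and 4, and without a filter 661 fell from 1 to 10 CPM, with 1011 higher and 25 lower under 1 CPM. Calling genes well expressed from 5 CPM left 880 higher from 1 CPM to there, and a low limit of 0.5 CPM left 161 lower. Genes under 1 CPM took 0.229% of the counts of tested genes in LN and 1.05% in E.G7. Leaving out 1 library gave 5657 to 6403 higher and 4086 to 5389 lower genes, 2658 to 2977 and 2736 to 3281 from 10 CPM, 1117 to 1347 and 1156 to 1655 from 1 to 10 CPM, and 1840 to 2089 and 193 to 453 under 1 CPM; with 1 E.G7 library its spread is taken from the other groups. Whether the replicate numbers pair samples is not known: deviations of E.G7 and LN correlated at -0.153 for number 1 and 0.0892 for number 2. With only 2 E.G7 libraries their deviations mirror each other, so this check cannot decide. The fit with a replicate block gave 6170 higher and 4929 lower genes. Only 2 E.G7 libraries limit every statement here, and under 1 CPM in LN a median SE of 0.662 on the log2 scale, against 0.1 from 10 CPM, limits what the depth can show.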
